A study of Mus musculus with 6 samples.

Results

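D-type cyclins and a set of cell-cycle brakes were followed across cell types of the postnatal mouse lung and cerebral cortex in single-cell RNA-seq libraries from mice that lost a growth factor gene in pericytes and from their controls. The set holds 10 of the 56884 genes listed in the files, chosen by symbol in all 6 libraries: Ccnd1, Ccnd2, Ccnd3, Ccng1, Ccnjl, Rgcc, Cdkn1a, Cdkn1b, Wee1 and Btg2. They were picked with measured values in view, as genes with molecule counts in many cell types and also outside dividing cells, so their levels and the share of their molecules outside dividing cells are given as a description.

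D-type cyclins bind CDK4 or CDK6 when growth factors and matrix signals reach a cell, and the active kinase phosphorylates the retinoblastoma protein, which frees E2F transcription factors and lets the cell pass from G1 into S phase. p21 and p27, the products of Cdkn1a and Cdkn1b, bind cyclin-CDK complexes and hold cells in G1 or out of the cycle, and WEE1 keeps CDK1 phosphorylated and inactive until mitosis. Alveolar type 2 (AT2) cells, which make surfactant, can divide and give rise to flat type 1 (AT1) cells, whereas lung and brain capillaries grow by division of endothelial cells during the first weeks after birth.

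In the labelled iPCKO groups, Pdgfrb(BAC)-CreERT2 removed a lox-flanked Bdnf, Hgf or Nodal gene after tamoxifen, and each group was set beside lox/lox mice that carried the same floxed gene without CreERT2. All mice, controls included, were given 50 µg tamoxifen per injection on postnatal days (P) 1 to 3. Bdnf and Hgf groups were studied in the lung at P21 after depletion of CD45+ and Ter119+ cells, so that immune cells are represented only by those that escaped it. Nodal groups were studied in the cerebral cortex at P12 after the meninges and myelin debris were removed. Each group is 1 library from 2 pooled mice whose sex is not given, the transgene also acts in vascular smooth muscle cells (vSMC), and no difference below has a replicate check.

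Expression was measured on the BD Rhapsody platform, which tags the 3′ end of each captured mRNA with a unique molecular identifier (UMI), and libraries held 33889545 to 186701379 UMIs. After a minimum of 1500 UMIs per barcode, or 700 in the shallower Hgf libraries, 3237 to 24311 barcodes per library were kept with a median of 2841 to 7791.5 UMIs, and 83.2% to 92.0% of them passed a marker gate for 1 cell type. All lung libraries held AT2-like and AT1-like cells by their markers, and both cortex libraries astrocyte-like, microglia-like and endothelial-like cells. In pericyte-like cells, Nodal UMIs numbered 187 in the Nodal control and 0 in the Nodal iPCKO cortex, Hgf was at 126 CPM (UMIs scaled to a common total of 1000000) in the Hgf control and 22.9 CPM in the Hgf iPCKO lung, and Bdnf at 26.6 and 8.0 CPM (15 and 4 UMIs) in the Bdnf control and Bdnf iPCKO lung. Over all gated cells of the Bdnf control and Bdnf iPCKO lungs, Bdnf was at 25.9 and 24.9 CPM (2952 and 2816 UMIs). Barcodes in which another class came above 0.7 of the leading class stayed unassigned, those with a second class below that limit were assigned, no separate doublet caller was run, and 70 to 2290 barcodes per library lay close to the gate limit. Bdnf control and Bdnf iPCKO libraries shared 457 barcode sequences, beside 456.9 for random draws from the possible barcodes, and the Hgf and Nodal pairs shared 254 and 21, beside 258.8 and 17.8.

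A level is the sum of a gene's UMIs over all cells of a type in 1 library, in CPM of all UMIs of these cells, and intervals given beside levels, ratios and shares are 95% intervals that cover counting error only. A ratio is the log2 of 1 library's CPM over the other's. It was computed for types with at least 50 cells in both libraries, and it is described as past the fold when it reached 1.5-fold in either direction and the pair of libraries together held 50 or more UMIs.

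Cyclin D1 (Ccnd1, chr7:144483668-144493662, minus strand, GRCm39), the D cyclin most directly induced by mitogens, was highest in club-like airway cells in all 4 lung libraries, at 343 CPM in the Bdnf control, 238 in the Bdnf iPCKO, 595 in the Hgf control and 285 in the Hgf iPCKO lung. Aerocyte-like capillary cells (aCap), the large capillary cells of gas exchange, held 275, 166, 350 and 111 CPM of Ccnd1 in the same order, and general capillary-like cells (gCap), which can divide and give rise to them, held 242, 167, 166 and 36.0 CPM. Ccnd1 was hardly seen in myofibroblast-like cells, at 2.72, 6.38, 0 and 2.72 CPM; the 0 allows up to 3 UMIs. In the cortex it was highest in vSMC-like cells, at 634 CPM in the control and 609 CPM in the Nodal iPCKO library, and next highest in endothelial-like cells, at 448 and 408 CPM.

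Cyclin D2 (Ccnd2, chr6:127102125-127129156, minus strand) had another distribution in the lung. AT1-like cells held 559, 464, 716 and 244 CPM in the Bdnf control, Bdnf iPCKO, Hgf control and Hgf iPCKO libraries, and ciliated-like cells held 514, 536, 428 and 531 CPM. In the cortex, vSMC-like cells held 1196 and 1342 CPM of Ccnd2 and microglia-like cells 5.35 and 21.8 CPM, beside an upper estimate of free RNA in the latter of 5.78 and 3.42 CPM, so that the control level is not told apart from background. Ccnd1 and Ccnd2 thus shared their highest cortical cell type but not their highest lung cell type.

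Cyclin D3 (Ccnd3, chr17:47815767-47910624, plus strand), the D cyclin known from maturing blood cells, was spread most evenly of the D cyclins over lung cells. Its highest and lowest lung types differed 2.65-fold to 6.44-fold within a library. These levels include free RNA. In the Hgf iPCKO lung, barcodes without a cell held more Ccnd3 than any lung type of at least 50 cells, as given below. How far free RNA evens out these levels was not tested. In the control lungs immune-like and aCap-like cells led, at 340 and 337 CPM in the Bdnf control and 411 and 409 CPM in the Hgf control, with overlapping intervals. Fibroblast-like cells led in the cortex, at 404 and 342 CPM.

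Among the other cyclins, cyclin G1 (Ccng1, chr11:40639377-40646148, minus strand), a p53 target that brings a phosphatase to MDM2, varied little among lung types. Its levels ran from 37.5 CPM in arterial-like to 113 CPM in matrix fibroblast-like cells of the Bdnf control lung, 3.03-fold. They varied more in the control cortex, from 13.2 to 84.6 CPM, 6.42-fold. Ccnjl (chr11:43419304-43477824, plus strand), a cyclin J-like gene with little known of its function, was by contrast mostly endothelial. gCap-like cells held 47.2, 45.4, 37.6 and 16.4 CPM of Ccnjl in the Bdnf control, Bdnf iPCKO, Hgf control and Hgf iPCKO lungs, beside 1.61, 3.02, 1.75 and 2.10 CPM in AT1-like cells, and cortical endothelial-like cells held 32.0 and 25.7 CPM.

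Of the brakes, Cdkn1a (chr17:29309936-29319701, plus strand) was high in endothelial cells of both organs. aCap-like cells held 748, 776, 782 and 1498 CPM in the Bdnf control, Bdnf iPCKO, Hgf control and Hgf iPCKO lungs, gCap-like cells 277, 448, 367 and 604 CPM, and cortical endothelial-like cells 477 and 590 CPM. In the Hgf control, myofibroblast-like cells held the most Cdkn1a, at 923 CPM, with an interval that overlapped that of aCap-like cells. Cdkn1a was lowest in AT1-like cells of the Hgf control, at 30.8 CPM, and in astrocyte-like cells, at 26.2 and 19.3 CPM. Cdkn1b (chr6:134897364-134902476, plus strand), by contrast, was present at 83.5 to 462 CPM in every lung type of at least 50 cells. AT1-like cells held 399, 462, 367 and 415 CPM of Cdkn1b, and microglia-like cells 428 and 321 CPM.

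Rgcc (chr14:79526185-79539085, minus strand), a regulator of cell cycle that binds CDK1, was highest in AT1-like cells in every lung library. AT1-like cells held 1056, 1478, 890 and 3806 CPM, AT2-like cells 184, 345, 284 and 1954 CPM, and pericyte-like cells 202, 253, 345 and 528 CPM in the Bdnf control, Bdnf iPCKO, Hgf control and Hgf iPCKO libraries. In the cortex Rgcc was at 235 and 192 CPM in endothelial-like, 223 and 226 CPM in astrocyte-like and 2.00 and 2.28 CPM in microglia-like cells.

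Wee1 (chr7:109721148-109747101, plus strand) was low throughout, at no more than 65.8 CPM in adventitial fibroblast-like cells of the Bdnf iPCKO lung and at 40.2 and 36.2 CPM in cortical endothelial-like cells. Btg2 (chr1:134002908-134015033, minus strand), a brake of the BTG/TOB family that recruits mRNA deadenylases and answers to p53 and to growth signals, was highest in myofibroblast-like cells, at 2409, 2417, 4061 and 2274 CPM in the Bdnf control, Bdnf iPCKO, Hgf control and Hgf iPCKO lungs. Microglia-like cells held 570 and 491 CPM of Btg2, and vSMC-like cells 360 and 623 CPM.

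**Figure D1:**
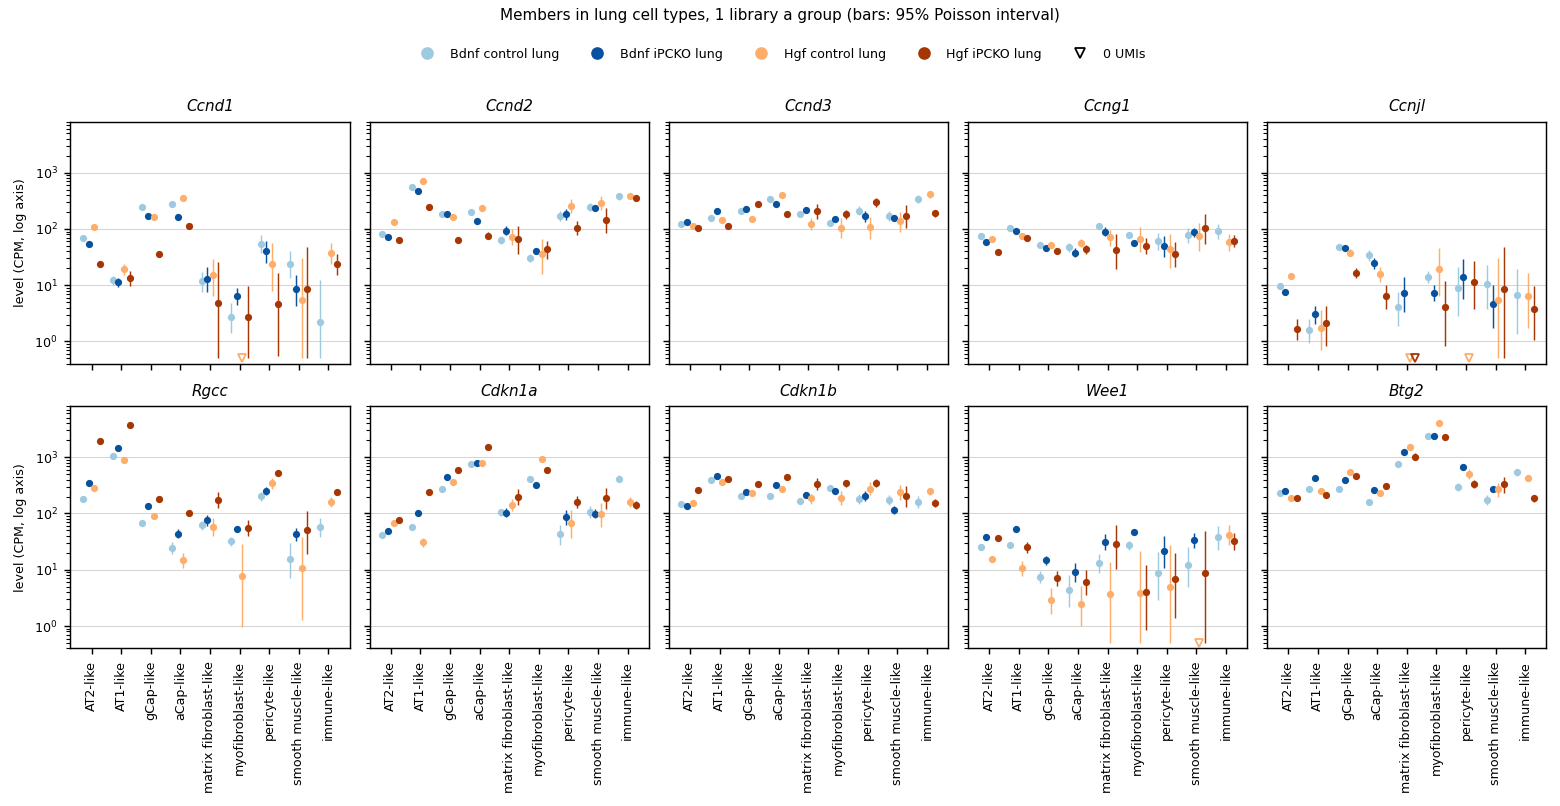
Level of each member in lung cell types, in CPM on a log axis, 1 point per library with its 95% Poisson interval; open triangles mark libraries with 0 UMIs. Rgcc is highest in AT1-like cells, from 890 to 3806 CPM, Btg2 in myofibroblast-like cells, from 2274 to 4061 CPM, and Ccng1 and Cdkn1b stay within a narrow band.

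**Figure D2:**
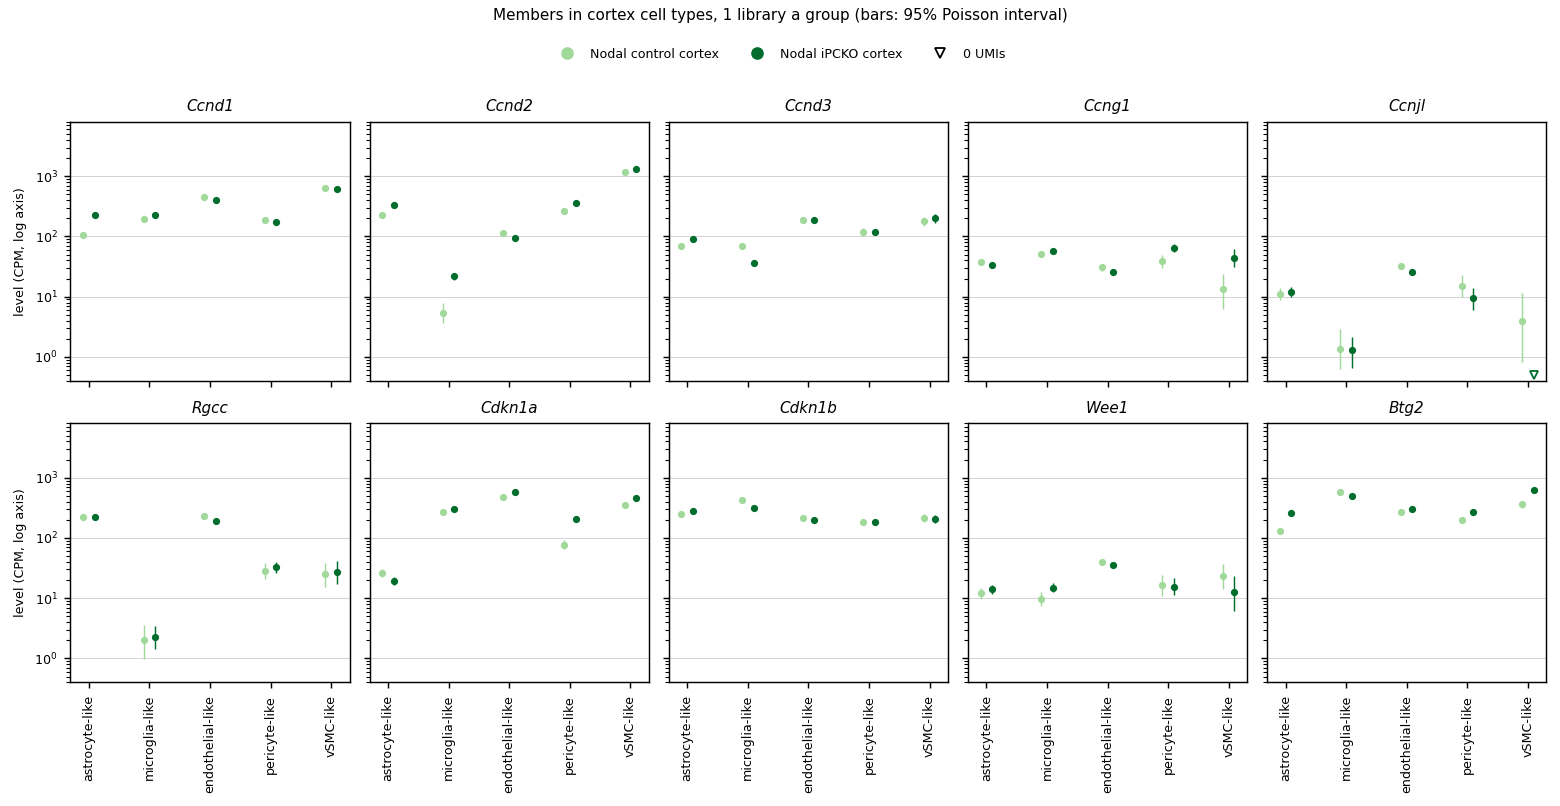
Level of each member in cortex cell types at P12, in CPM on a log axis, 1 point per library with its 95% Poisson interval; the open triangle marks 0 UMIs. Ccnd2 spans 5.35 CPM in microglia-like to 1196 CPM in vSMC-like cells of the control, and Ccnd1 in astrocyte-like cells lies at 106 CPM in the control and 225 CPM in the Nodal iPCKO library.

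Promoter sequence is shown for Cdkn1a and Ccng1, both long known as p53 targets, and for Rgcc, the member with the highest ratio in AT2-like cells of the Hgf pair described below. RefSeq start sites on GRCm38.p6 were matched for 7 of the 10 members with 9 windows of 250 bases before the start, and none for Ccnd1, Ccnd2 and Wee1. Capitals mark matches on either strand, to the p53 decamer in Cdkn1a (2 matches, 73 and 51 bases before the start) and Ccng1 (1 match, 185 bases before it), and to the GC box GGGCGG in Rgcc (5 matches that overlap in part).
Cdkn1a, chr17:29090729-29090978, plus strand: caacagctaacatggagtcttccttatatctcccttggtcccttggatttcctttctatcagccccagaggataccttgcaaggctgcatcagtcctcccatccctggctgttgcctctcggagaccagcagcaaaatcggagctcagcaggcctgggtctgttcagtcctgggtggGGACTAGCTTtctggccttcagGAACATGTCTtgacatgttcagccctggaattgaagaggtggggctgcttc
Ccng1, chr11:40755287-40755536, minus strand: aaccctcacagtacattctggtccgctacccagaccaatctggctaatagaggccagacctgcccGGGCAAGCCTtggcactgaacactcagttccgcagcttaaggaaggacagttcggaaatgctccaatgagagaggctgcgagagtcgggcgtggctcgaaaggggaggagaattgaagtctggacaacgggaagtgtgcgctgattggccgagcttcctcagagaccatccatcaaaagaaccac
Rgcc, chr14:79301636-79301885, minus strand: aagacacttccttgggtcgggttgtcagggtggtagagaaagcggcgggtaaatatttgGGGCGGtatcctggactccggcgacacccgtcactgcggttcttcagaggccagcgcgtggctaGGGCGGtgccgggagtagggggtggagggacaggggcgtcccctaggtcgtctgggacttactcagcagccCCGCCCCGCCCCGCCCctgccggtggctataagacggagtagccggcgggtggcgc
Of 32851 windows of this length before mouse start sites, 7.1% held the p53 decamer and 32.7% the GC box. No other member window held the decamer, the second Cdkn1a start site included. A match describes the letters of the window and is no evidence of binding.

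Dividing cells were few in the lung, with 120, 131, 62 and 103 barcodes holding at least 3 of 12 mitotic markers in the Bdnf control, Bdnf iPCKO, Hgf control and Hgf iPCKO libraries, and 208 and 435 in the control and Nodal iPCKO cortex. In the same order of lungs, AT2-like cells held 29, 37, 1 and 0 dividing barcodes and gCap-like cells 26, 14, 1 and 1. Immune-like cells held 26 and 54 of those in the Hgf control and Hgf iPCKO lungs. The count of markers was not matched for depth, and these immune-like cells had median depths of 4063 and 8419.5 UMIs. In the lung at least 94.7% of each member's gated UMIs lay outside dividing barcodes. In the cortex the shares were 82.4% to 93.6%, apart from Wee1 with 74.2% in the control and 73.8% in the Nodal iPCKO library. These shares are part of what the members were chosen for.

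Wee1 had the highest ratio of dividing over other barcodes among the members in AT2-like, gCap-like, astrocyte-like and microglia-like cells, wherever a library held at least 20 dividing barcodes of that type. AT2-like cells of the Bdnf control lung held 89.2 CPM of Wee1 in 29 dividing barcodes and 24.5 CPM in the others, and control microglia-like cells 56.2 and 5.90 CPM. Cdkn1a and Ccng1 were also higher in dividing microglia-like barcodes, at 780 against 225 CPM and 150 against 42.9 CPM in the control, and at 530 against 262 CPM and 97.8 against 49.2 CPM in the Nodal iPCKO cortex. Ccnd2 was lower in dividing cortical endothelial-like barcodes, at 46.1 against 129 CPM in the control and 39.9 against 110 CPM in the Nodal iPCKO library. Dividing barcodes thus did not carry more of every cyclin or less of every brake.

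The Hgf pair asks what loss of hepatocyte growth factor from lung pericytes changes in neighbouring cells. In the main types with enough UMIs, Ccnd1 was lower in the Hgf iPCKO library in 4 of 4, Ccnd2 in 8 of 8 and Ccnjl in 3 of 3, and Rgcc was higher in 7 of 7, Wee1 in 3 of 4, Cdkn1a in 6 of 8 and Cdkn1b in 7 of 9, whether or not past the fold. Over all 9 main lung types, 41 of 66 members tested by type were past the fold. In AT2-like cells it was 7 of 10 members, beside 29.2% of all genes tested there, in AT1-like cells 4 of 9 beside 26.3%, in gCap-like cells 7 of 10 beside 26.6%, and in aCap-like cells 7 of 9 beside 26.1%. In pericyte-like cells it was 5 of 6 members beside 29.9%, in matrix fibroblast-like cells 3 of 6 beside 40.9%, in myofibroblast-like cells 4 of 5 beside 37.7%, in smooth muscle-like cells 1 of 3 beside 43.4%, and in immune-like cells 3 of 8 beside 35.6%. Since the members were chosen with these values known, nothing is read from their shares against the background here or in the pairs that follow. The median log2 ratio of all genes tested differed from 0 by more than 0.1 only in myofibroblast-like cells, at 0.13.

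Ccnd1 in AT2-like cells was 108 CPM in the Hgf control and 23.7 CPM in the Hgf iPCKO lung, a log2 ratio of -2.19 (interval -2.35 to -2.03). The log2 ratio was -2.21 (-2.43 to -1.99) in gCap-like cells and -1.66 (-1.85 to -1.47) in aCap-like cells. Outside the main types, arterial-like cells went from 98.5 to 11.6 CPM and club-like cells from 595 to 285 CPM. Ciliated-like cells did not share this, with 180 CPM of Ccnd1 in the control and 217 CPM in the Hgf iPCKO lung.

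Ccnd2 was lower in the Hgf iPCKO library in all 8 main types in which it was tested, and past the fold in 6 of them. In AT1-like cells its level was 716 and 244 CPM, a log2 ratio of -1.55 (-1.67 to -1.44), and in pericyte-like cells 257 and 105 CPM, a log2 ratio of -1.29 (-1.89 to -0.69). Lymphatic-like cells held 181 and 31.4 CPM of Ccnd2, and ciliated-like cells again differed, with 428 and 531 CPM. The third D cyclin moved in both directions. Ccnd3 was higher in the Hgf iPCKO library in pericyte-like cells, at 109 and 297 CPM, and in gCap-like cells, at 153 and 276 CPM, and lower in aCap-like cells, at 409 and 185 CPM. Barcodes without a cell, of 10 to 200 UMIs, held 284 and 670 CPM of Ccnd3. After an upper estimate of such free RNA was subtracted, the log2 ratio of Ccnd3 was 1.40 in pericyte-like, 0.75 in gCap-like and -1.37 in aCap-like cells, and -1.98 in AT1-like and -1.70 in AT2-like cells, where it had been -0.33 and -0.13.

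Ccnjl in AT2-like cells was 14.4 and 1.68 CPM in the Hgf control and Hgf iPCKO lungs, a log2 ratio of -3.09 (-3.75 to -2.52) as measured. The free RNA estimate for Ccnjl in these cells was 3.86 and 1.65 CPM, so that the Hgf iPCKO level is not told apart from background and the size of the ratio is uncertain. In gCap-like cells Ccnjl was 37.6 and 16.4 CPM, beside an estimate of 1.73 and 1.02 CPM. Ccng1 was past the fold in AT2-like cells alone among 6 main types, at 65.2 and 39.0 CPM (log2 ratio -0.74, -0.88 to -0.61).

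Rgcc was higher in the Hgf iPCKO library in all 7 main lung types tested. AT2-like cells held 284 CPM in the Hgf control and 1954 CPM in the Hgf iPCKO lung, a log2 ratio of 2.79 (2.75 to 2.82), and AT1-like cells 890 and 3806 CPM, a log2 ratio of 2.10 (2.04 to 2.15). Club-like cells held 49.4 and 653 CPM beside a free RNA estimate of 107.0 and 446 CPM, and ciliated-like cells 9.93 and 99.1 CPM beside 12.8 and 62.4 CPM, so that the control levels of both are not told apart from background. Barcodes without a cell held 305 and 973 CPM of Rgcc. The free RNA estimate for aCap-like cells, scaled by the AT2 markers found in them, was 11.4 and 48.2 CPM of the 14.95 and 99.9 CPM of Rgcc measured there. After its subtraction the log2 ratio of Rgcc was 2.89 in AT2-like, 2.18 in AT1-like, 0.64 in gCap-like and 3.88 in aCap-like cells.

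Cdkn1a in AT1-like cells was 30.8 CPM in the Hgf control and 245 CPM in the Hgf iPCKO lung, a log2 ratio of 2.99 (2.71 to 3.27). aCap-like cells held 782 and 1498 CPM of Cdkn1a, a log2 ratio of 0.94 (0.86 to 1.01), and gCap-like cells 367 and 604 CPM, a log2 ratio of 0.72 (0.64 to 0.80). AT2-like cells held 68.4 and 76.7 CPM, within the fold, and myofibroblast-like cells 923 and 586 CPM, a log2 ratio of -0.66 (-0.89 to -0.42) that was within the fold at -0.41 with a stricter gate on cell type. The log2 ratio of Cdkn1b was 0.73 (0.67 to 0.80) in AT2-like, 0.66 (0.53 to 0.79) in aCap-like and 0.51 (0.41 to 0.61) in gCap-like cells, the last within the fold. In immune-like cells the log2 ratio of Cdkn1b was -0.69, with 26 of 97 barcodes dividing in the control and 54 of 98 in the Hgf iPCKO library, and 0.35 without dividing barcodes. Ccnd3 in these cells likewise had a log2 ratio of -1.11, and -0.28 without dividing barcodes, so that none of the 3 members past the fold in immune-like cells was past it among the other barcodes.

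Wee1 was at 15.4 and 36.8 CPM in AT2-like cells, a log2 ratio of 1.26 (1.08 to 1.45), and at 10.5 and 25.2 CPM in AT1-like cells of the Hgf control and Hgf iPCKO lungs. Free RNA is not subtracted in these values, and barcodes without a cell held 17.4 and 30.3 CPM of Wee1. Btg2 was within the fold in 6 of 9 main types. It was lower in myofibroblast-like cells, at 4061 and 2274 CPM (log2 ratio -0.84, -0.95 to -0.72). The Hgf control level rests on 110 cells. The Bdnf control and Bdnf iPCKO lungs held 2409 and 2417 CPM of Btg2 in this type, nearer the Hgf iPCKO level. Btg2 was also lower in pericyte-like cells, with a log2 ratio of -0.62 that was within the fold at -0.16 with a stricter gate on cell type. In immune-like cells its log2 ratio was -1.17, and -0.09 without dividing barcodes, within the fold.

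The Bdnf pair asks the same of brain-derived neurotrophic factor. With free RNA not subtracted, Wee1 and Rgcc were higher in the Bdnf iPCKO library across cell types. Btg2 and Cdkn1a were higher in some types, and Ccnd1 was lower in aCap-like, arterial-like and venous-like cells. Of 72 members tested by type, 23 were past the fold. In AT1-like cells it was 4 of 10 members beside 16.6% of all genes tested, in AT2-like cells 2 of 10 beside 12.5%, in aCap-like cells 4 of 9 beside 11.8%, and in gCap-like cells 3 of 10 beside 11.2%. In matrix fibroblast-like cells it was 2 of 8 beside 16.6%, in myofibroblast-like cells 3 of 9 beside 10.6%, in pericyte-like cells 2 of 8 beside 14.1%, and in smooth muscle-like cells 3 of 8 beside 16.4%.

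Ccnd1 in aCap-like cells was 275 CPM in the Bdnf control and 166 CPM in the Bdnf iPCKO lung, a log2 ratio of -0.73 (-0.90 to -0.56). In gCap-like cells the log2 ratio was -0.54 (-0.64 to -0.44), within the fold, and arterial-like cells held 85.0 and 47.5 CPM and venous-like cells 74.3 and 39.1 CPM. As measured, Ccnd2, Ccnd3 and Ccng1 were within the fold in all 8 main types of the Bdnf pair, with Ccng1 log2 ratios from -0.48 in myofibroblast-like to 0.17 in smooth muscle-like cells. After subtraction of free RNA, the log2 ratio of Ccnd3 was -0.71 in AT2-like cells, where it had been 0.11, and -0.69 in pericyte-like cells, where it had been -0.33. Ccnjl was at 14.1 and 7.30 CPM in myofibroblast-like cells and, on 18 and 33 UMIs, at 1.61 and 3.02 CPM in AT1-like cells, where the log2 ratio of 0.91 turned to -1.18 after subtraction of free RNA.

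As measured, Rgcc was higher in the Bdnf iPCKO library in all 8 main types and past the fold in 5. It was at 184 and 345 CPM in AT2-like cells, a log2 ratio of 0.91 (0.87 to 0.94), at 66.5 and 135 CPM in gCap-like cells, a log2 ratio of 1.02 (0.88 to 1.16), and at 1056 and 1478 CPM in AT1-like cells, within the fold. Rgcc in barcodes without a cell was 299 and 448 CPM, and in aCap-like cells its 24.7 and 44.0 CPM stood beside a free RNA estimate of 14.8 and 39.0 CPM. After subtraction the log2 ratio of Rgcc was 0.94 in AT2-like, 0.89 in gCap-like and 0.54 in AT1-like cells, but -0.91 in aCap-like, -0.68 in matrix fibroblast-like and -0.12 in myofibroblast-like cells. Wee1, with free RNA not subtracted, was past the fold in all 6 main types tested, with log2 ratios from 0.60 in AT2-like to 1.47 in smooth muscle-like cells. It was 27.9 and 52.2 CPM in AT1-like cells, and 28.7 and 53.8 CPM in barcodes without a cell.

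Cdkn1a in gCap-like cells was 277 and 448 CPM in the Bdnf control and Bdnf iPCKO lungs, a log2 ratio of 0.69 (0.62 to 0.77), and in AT1-like cells 56.7 and 101 CPM, a log2 ratio of 0.83 (0.68 to 0.97). In aCap-like cells, where Cdkn1a is highest, it was 748 and 776 CPM and its interval included 0. Cdkn1b was past the fold only in aCap-like cells among the main types, with a log2 ratio of 0.65 (0.49 to 0.81). Btg2 was past the fold in 5 of 8 main types, most in pericyte-like cells at 298 and 680 CPM, a log2 ratio of 1.19 (0.92 to 1.47), and in matrix fibroblast-like cells at 753 and 1216 CPM. In myofibroblast-like cells, where Btg2 is highest, it was 2409 and 2417 CPM.

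The control lungs of both pairs carry no CreERT2, so their difference shows how far libraries without the deletion lay apart. It shares the control libraries with both pairs above, and litter, floxed gene, library depth and capture cannot be told apart in it. Of 72 members tested by type, 28 were past the fold. In AT2-like cells it was 5 of 10 members beside 26.3% of all genes tested, in AT1-like cells 3 of 9 beside 25.2%, in gCap-like cells 2 of 10 beside 22.2%, and in aCap-like cells 2 of 9 beside 22.5%. In pericyte-like cells it was 5 of 5 beside 27.7%, in matrix fibroblast-like cells 2 of 7 beside 28.7%, in myofibroblast-like cells 4 of 9 beside 37.6%, in smooth muscle-like cells 1 of 6 beside 30.2%, and in immune-like cells 4 of 7 beside 34.5%. The median log2 ratio of all genes between controls was -0.11 in both matrix fibroblast-like and myofibroblast-like cells.

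Wee1 was lower in the Hgf control than in the Bdnf control in all 4 main types tested, with log2 ratios of -0.71 (-0.86 to -0.55) in AT2-like, -1.41 (-1.91 to -0.94) in AT1-like, -1.36 in gCap-like and -2.81 in myofibroblast-like cells, the last on 1 UMI in the Hgf control. In AT1-like and gCap-like cells these differences were as large as those of Wee1 within the Hgf pair, and the Hgf iPCKO lung, at 25.2 CPM in AT1-like cells, lay near the 27.9 CPM of the Bdnf control. Free RNA is not subtracted in these ratios. Barcodes without a cell held 28.7 CPM of Wee1 in the Bdnf control and 17.4 CPM in the Hgf control. Rgcc and Ccnd1 differed between controls by a log2 ratio of 0.63 (0.58 to 0.67) and 0.64 (0.57 to 0.71) in AT2-like cells, with the higher level in the Hgf control. Cdkn1a in AT1-like cells was 56.7 CPM in the Bdnf control and 30.8 CPM in the Hgf control, a log2 ratio of -0.88 (-1.17 to -0.60), and Btg2 in gCap-like cells was 268 and 543 CPM, a log2 ratio of 1.02 (0.94 to 1.10). For Rgcc in AT2-like and AT1-like cells, Ccnd1 in AT2-like and gCap-like cells and Cdkn1a in AT1-like cells, the difference within the Hgf pair was larger than that between controls. For Rgcc in pericyte-like cells it was smaller, at 345 and 528 CPM beside 202 CPM in the Bdnf control. Within the Bdnf pair, Wee1 in AT2-like, AT1-like and gCap-like cells and Cdkn1a in AT1-like cells differed by less than between controls. Rgcc in AT2-like and gCap-like cells differed by more.

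**Figure D3:**
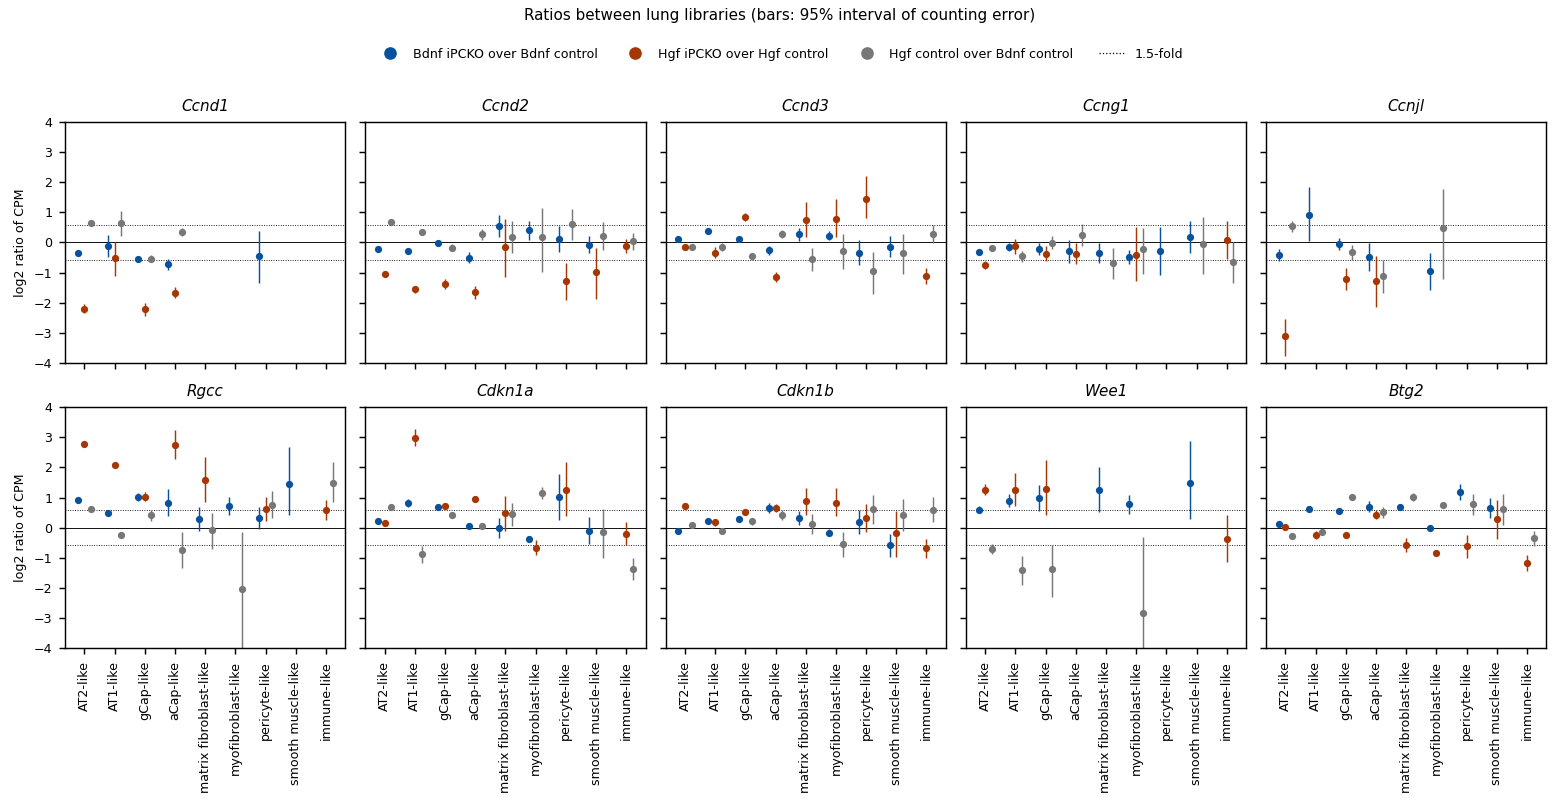
Log2 ratio of CPM between lung libraries for each member and main cell type, with 95% intervals of counting error; blue is Bdnf iPCKO over Bdnf control, brown Hgf iPCKO over Hgf control, gray Hgf control over Bdnf control, and dotted lines mark 1.5-fold. Some long intervals run past the lower edge. Ccnd2 is below 0 in every type of the Hgf pair in which it was tested, and Rgcc is above 0 in every type of both iPCKO pairs in which it was tested, with free RNA not subtracted.

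The Nodal pair asks what loss of Nodal, a TGFβ family ligand made by brain pericytes, changes in the cortex. Of 43 members tested by type in the main cortical types, 8 were past the fold. In astrocyte-like cells it was 2 of 10 members beside 7.85% of all genes tested, in endothelial-like cells 0 of 10 beside 7.63%, in microglia-like cells 3 of 8 beside 13.9%, in pericyte-like cells 2 of 9 beside 9.17%, and in vSMC-like cells 1 of 6 beside 11.5%. Endothelial-like cells had log2 ratios from -0.32 for Ccnjl to 0.31 for Cdkn1a. Outside the main types, Cdkn1a was past the fold in fibroblast-like cells, at 1.275. Its 99.2 and 240 CPM there lay below an upper estimate of free RNA of 199 and 250 CPM, so neither is told apart from background. In neuron-like cells Ccnd2 (-1.016), Rgcc (-0.806), Cdkn1a (-1.085) and Wee1 (-0.643, interval -1.327 to 0.075) were past it. Rgcc in neuron-like cells lay below the free RNA estimate in both libraries, and Cdkn1a in the Nodal iPCKO library. Wee1 in these cells was 10.3 CPM in the Nodal iPCKO library, beside an estimate of 9.74 CPM. No share over all genes was computed for these types.

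Ccnd1 in astrocyte-like cells was 106 CPM in the control and 225 CPM in the Nodal iPCKO cortex, a log2 ratio of 1.09 (0.97 to 1.21), and Btg2 was 132 and 256 CPM, a log2 ratio of 0.96 (0.85 to 1.07). Ccnd2 in the same cells was 230 and 328 CPM, within the fold. In microglia-like cells Ccnd2 was 5.35 and 21.8 CPM on 30 and 210 UMIs and is counted as past the fold, but its size is not given because the control level lies at the free RNA estimate. Ccnd3 in these cells was 70.0 and 36.3 CPM, a log2 ratio of -0.95 (-1.16 to -0.74). Wee1 in microglia-like cells was 9.79 and 14.98 CPM, a log2 ratio of 0.61 (0.15 to 1.09), with 53 of 858 barcodes dividing in the control and 155 of 1393 in the Nodal iPCKO library. Without dividing barcodes Wee1 was 5.90 and 9.76 CPM on 30 and 80 UMIs, a log2 ratio of 0.73.

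Cdkn1a in pericyte-like cells, the cells that lost Nodal, was 77.6 CPM in the control and 206 CPM in the Nodal iPCKO cortex, a log2 ratio of 1.41 (1.12 to 1.71). Ccng1 there was 38.8 and 64.4 CPM, a log2 ratio of 0.73 (0.30 to 1.18). Of 15 other p53 target genes tested in these cells 2 were past the fold, beside the 9.17% of all genes, with a list median of 0.20, and the part of p53 in either difference was not tested. Btg2 in vSMC-like cells was 360 and 623 CPM, a log2 ratio of 0.79 (0.58 to 1.01).

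**Figure D4:**
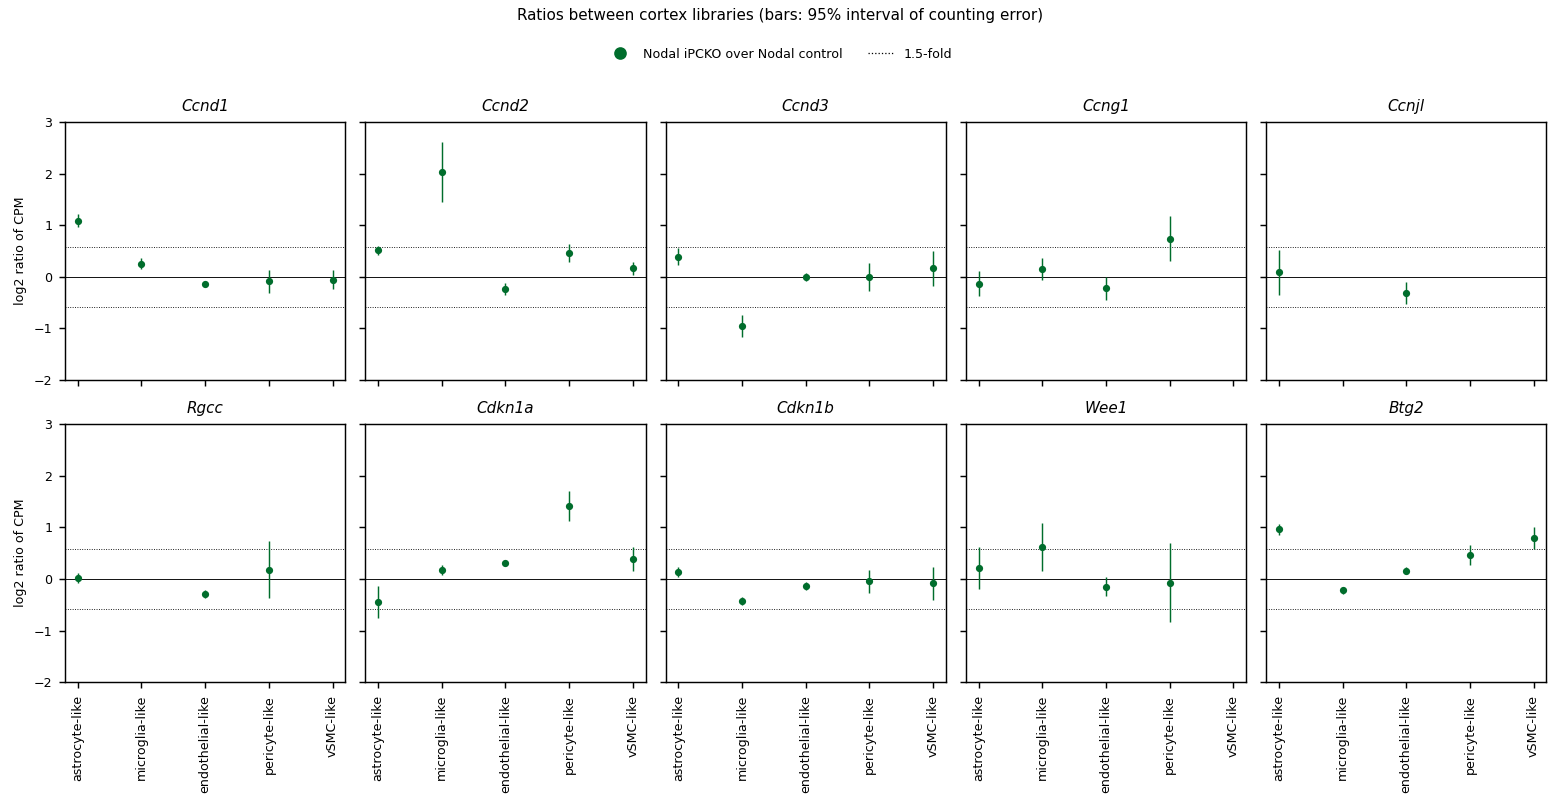
Log2 ratio of CPM of the Nodal iPCKO over the control cortex for each member and main cell type, with 95% intervals of counting error; dotted lines mark 1.5-fold. Points past the lines with 50 or more UMIs are Ccnd1 and Btg2 in astrocyte-like, Ccnd2, Ccnd3 and Wee1 in microglia-like, Ccng1 and Cdkn1a in pericyte-like and Btg2 in vSMC-like cells.

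The share of cells with at least 1 UMI was compared after each cell of a pair was thinned to the same number of UMIs. In the Hgf pair, Rgcc was found in 43.5% (42.2% to 44.9%) of control and 97.04% (96.4% to 97.6%) of Hgf iPCKO AT2-like cells at 2312 UMIs, and in 62.2% and 98.3% before thinning, at median depths of 4752.5 and 3625 UMIs; 285 and 398 shallower cells were left out of the thinning. In myofibroblast-like cells, the type with little Rgcc, the thinned shares were 1.83% and 6.42%, and the unthinned 1.82% and 7.69% at median depths of 2313 and 1730 UMIs. Nearly all AT2-like cells of the Hgf iPCKO lung thus held an Rgcc UMI. Cdkn1a was found in 3.49% and 20.8% of AT1-like cells at 1185 UMIs (8.57% and 37.6% unthinned, at median depths of 4016 and 2763 UMIs, with 44 and 111 cells left out), beside 12.4% and 12.6% of AT2-like cells at 2312 UMIs. Most AT1-like cells of the Hgf iPCKO library thus held no Cdkn1a UMI at this depth. Ccnd1 was found in 17.7% and 4.43% of AT2-like cells at 2312 UMIs (29.1% and 6.54% unthinned), beside 0% and 0.27% of myofibroblast-like cells, where 0 of 109 thinned cells allow a share of up to 2.75%. In the cortex, Cdkn1a was found in 10.2% and 27.4% of pericyte-like cells at 2677 UMIs (15.1% and 36.5% unthinned, at median depths of 5377 and 5646 UMIs, with 27 and 43 cells left out), beside 10.6% and 6.98% of astrocyte-like cells at 4771 UMIs, from median depths of 10265 and 11108 UMIs.

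**Figure D5:**
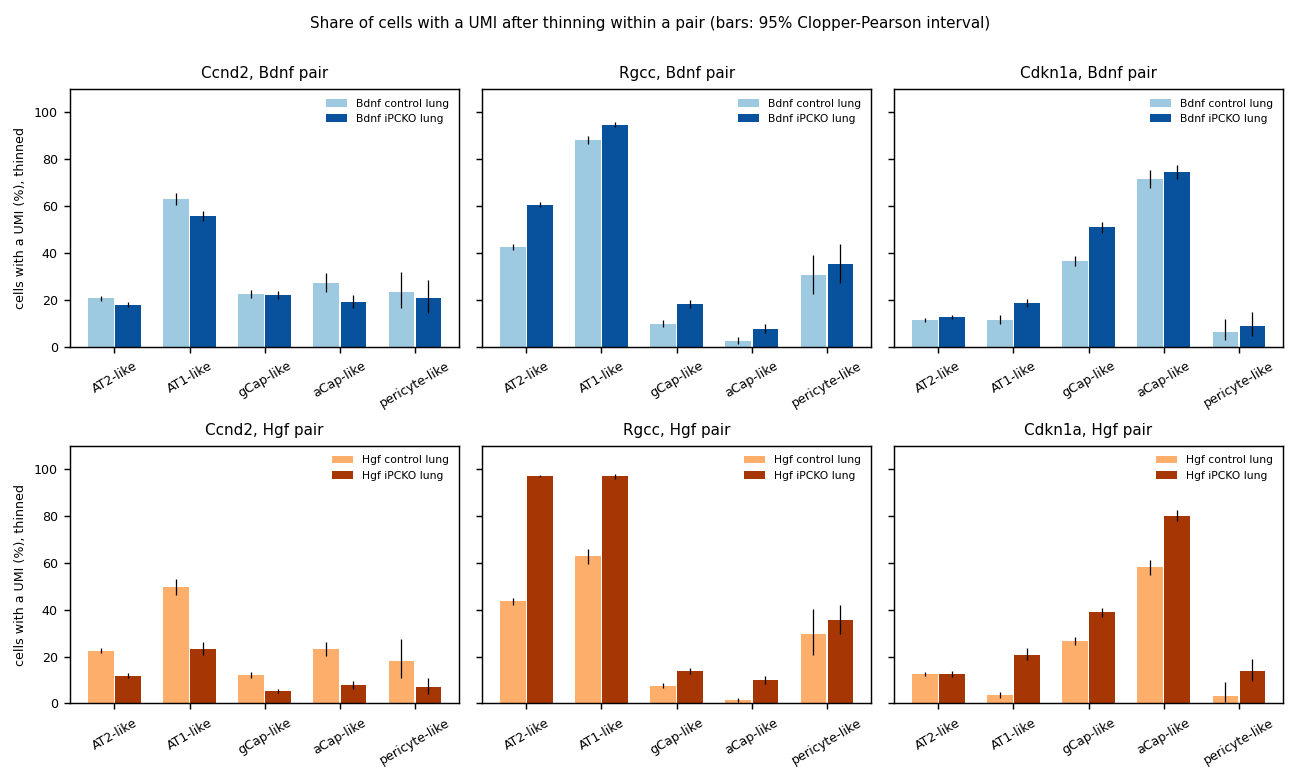
Share of cells with at least 1 UMI of Ccnd2, Rgcc or Cdkn1a, in percent, in 5 lung cell types after thinning within the Bdnf pair (upper row) and the Hgf pair (lower row), with 95% Clopper-Pearson intervals. Rgcc goes from 43.5% to 97.04% of AT2-like cells in the Hgf pair, and Ccnd2 from 49.6% to 23.3% of AT1-like cells.

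Other genes of the pathway were taken as 7 lists and counted in the same way, against the backgrounds already given. CDK, INK4, Rb and E2F genes, the machinery the D cyclins act on, had 7 of 21 tested past the fold in AT2-like cells of the Hgf pair (median log2 ratio 0.18), 10 of 18 in AT1-like cells (-0.12) and 7 of 19 in gCap-like cells (-0.30), where Cdk6 was 98.4 and 40.2 CPM. In aCap-like cells, Cdkn2b, which encodes the CDK4 inhibitor p15, was 110 and 19.5 CPM in the Hgf pair and 75.6 and 31.2 CPM in the Bdnf pair. In the Nodal pair this list had 0 of 21 past the fold in astrocyte-like and 1 of 25 in endothelial-like cells, the latter Cdkn1c, another CDK inhibitor, at 236 and 122 CPM. It had 0 of 18 past the fold in pericyte-like and 4 of 23 in microglia-like cells, 3 higher and 1 lower. In vSMC-like cells 4 of 9 were past it, all lower (median -0.56). The BTG/TOB relatives of Btg2 were past the fold in 0 of 4 tested in AT2-like cells of either lung pair and in 2 of 3 in pericyte-like cells of the Bdnf pair, Tob1 and Tob2.

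S phase and mitosis genes reached 50 UMIs in few lung types. In the Hgf pair 3 of 8 were past the fold in gCap-like cells, all higher in the Hgf iPCKO lung (median 0.26), 3 of 7 in AT2-like cells, 2 higher and 1 lower (0.01), and 6 of 18 in immune-like cells, all lower (-0.09). In gCap-like cells of the Bdnf pair 5 of 18 were past the fold, all lower in the Bdnf iPCKO lung, with Mki67 at 26.7 and 16.0 CPM and a list median of -0.40, and in AT2-like cells 1 of 18 was past it, with a median of 0.01. Between control lungs 13 of 18 in AT2-like and 14 of 18 in gCap-like cells were past it, with medians of -1.95 and -2.15. In the Nodal pair 10 of 18 were past the fold in pericyte-like, 10 of 18 in microglia-like and 10 of 17 in astrocyte-like cells, all but 1 higher in the Nodal iPCKO cortex, with medians of 0.66, 0.64 and 0.81. In endothelial-like cells 0 of 18 were past it (median 0.00), and in vSMC-like cells 7 of 9, all lower, with a median of -1.15, where 6 of 82 barcodes were dividing in the control and 2 of 105 in the Nodal iPCKO cortex.

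Genes of the circadian clock and targets of glucocorticoids and FOXO factors were mostly higher in the Hgf iPCKO lung. Clock genes were past the fold in 14 of 16 tested in AT2-like, 12 higher and 2 lower (median log2 ratio 2.27), 10 of 12 in AT1-like (1.45), 11 of 14 in gCap-like (2.49) and 12 of 12 in aCap-like cells (1.97). Dbp, a clock output factor, was 3.20 and 130 CPM in AT2-like cells, and Nr1d1, a clock repressor, was 6.35 and 207 CPM in gCap-like cells. Glucocorticoid and FOXO targets were past the fold in 9 of 9 tested in AT1-like (1.45), 8 of 10 in AT2-like (0.94), 7 of 9 in gCap-like (0.92) and 9 of 9 in pericyte-like cells (1.79), and Fkbp5, a glucocorticoid target, was 4.51 and 162 CPM in AT1-like cells. The part of these programmes in the differences of Rgcc, Wee1, Cdkn1a and the D cyclins was not tested.

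In the Bdnf pair, clock genes were past the fold in 11 of 16 tested in AT2-like (median 0.72) and 12 of 15 in gCap-like cells (0.94), and between control lungs in 9 of 15 (-0.66) and 9 of 14 (-0.54). Immediate-early genes, which dissociation of tissue can induce as growth signals do, were past it in the Bdnf pair in 12 of 15 in AT1-like (0.89), 10 of 15 in AT2-like (0.73), 9 of 15 in gCap-like (0.84) and 11 of 13 in pericyte-like cells (0.95), but in 1 of 15 in myofibroblast-like cells (-0.11). Between control lungs, where Btg2 also differed, they were past it in 11 of 15 in gCap-like (0.81), 11 of 15 in aCap-like (0.93), 12 of 14 in matrix fibroblast-like (1.04) and 6 of 12 in pericyte-like cells (0.59). In the Hgf pair they were past it in 6 of 15 in AT2-like (-0.26) and 13 of 15 in immune-like cells (-1.21), of which 26 of 97 barcodes were dividing in the control and 54 of 98 in the Hgf iPCKO library. The part of dividing barcodes in this list was not tested. Immediate-early genes were past the fold in the Nodal pair in 10 of 15 in astrocyte-like cells (0.82), where Egr2 was 6.78 and 25.4 CPM, and 4 of 14 in vSMC-like cells (0.50). Btg2 was past the fold in AT1-like and pericyte-like cells of the Bdnf pair and in both of these cortical types, but not in AT2-like and gCap-like cells of the Bdnf pair, and the part of these genes in Btg2 was not tested. Other p53 targets were past the fold in the Hgf pair in 5 of 13 in AT1-like (median 0.24), 6 of 15 in aCap-like (-0.02), 6 of 14 in gCap-like (-0.19), 2 of 3 in pericyte-like (1.81) and 5 of 16 in AT2-like cells (0.05), and in 5 of 15 in AT1-like cells of the Bdnf pair, all higher (0.07).

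Across 78 combinations of cell type and library with at least 50 cells, the genes whose level followed a member most closely were listed among 8074 genes, by Pearson's r of log2(CPM + 1), as a description of points that share libraries and depth. Btg2 was followed by Zfp36 (0.81), Zfp36l1 (0.81) and Pnrc1 (0.78), Cdkn1a by Sertad1 (0.79), Csrnp1 (0.77) and Card19 (0.76), and Cdkn1b by Fbxl20 (0.79), Pfkfb3 (0.77) and Gatad2b (0.77). Rgcc was followed by Slc25a51 (0.70) and Lamb3 (0.70), Ccnjl by the endothelial gene Zfp366 (0.74), and Ccnd3 by Ctdsp1 (0.71). Nothing followed Ccnd1, Ccnd2, Ccng1 or Wee1 above 0.65, with Pomp (0.61), Pfdn1 (0.62), Lgals3 (0.64) and Rps19-ps6 (0.65) nearest.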

How the data were processed

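Lung and cortex cells of 6 groups were profiled with 3′ whole-transcriptome BD Rhapsody libraries, sequenced on a NextSeq500 and, per the study's methods, aligned by the authors to GRCm39 with STAR 2.7.10a without a cell filter. The deposited values are estimated counts of UMIs per gene and barcode, in which reads that match several genes were shared out. They were rounded only for exact intervals, for printed UMI numbers and for shares of cells with a UMI. More than 1 annotation version is named in the sources used here, so gene positions come from the GRCm39 annotation supplied for this work.

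The members and gene lists were chosen with earlier results of these data known. Barcodes with at least 1500 UMIs (700 in the Hgf libraries) were assigned to a type when at least 3 of its markers and a mean relative level of 0.35 were reached and no other class came above a ratio of 0.7. UMIs were summed per library and type and scaled to CPM; intervals are exact Poisson for levels, conditional exact for ratios and Clopper-Pearson for shares. With 1 library per group no test across libraries was made and no p-value is given; separate mice were pooled, so the spread between animals is unknown. All 10 members were named, with up to 3 list genes per type and list by size of ratio; lists were CDK, INK4, Rb and E2F genes, BTG/TOB genes, p53 target genes, clock genes (16 of 17 symbols measured), immediate-early genes, glucocorticoid and FOXO targets, and S phase and mitosis genes, none with a member. Likeness used genes with a mean of at least 20 CPM. Shares were thinned to the 10th percentile of UMIs in the shallower library. Alternatives were other UMI minimums, a stricter gate, Leiden clusters (2000 genes, 50 components, 15 neighbours, resolution 1), median-of-ratios scaling, removal of fractional entries, high mitochondrial share, high UMIs or dividing barcodes, and per-cell means; subtraction of free RNA and omission of small or immune-like classes were added after seeing the data. Scripts, tested on simulated data, ran in Python 3.11.15 with numpy 2.4.6, scipy 1.17.1, pandas 2.3.3, leidenalg 0.10.2 and matplotlib 3.10.9. The deposited cell-label tag files were not used.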

Additional observations from a re-analysis of the deposited data

Results flagged for a closer look

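The following members went past 1.5-fold in opposite directions in different cell types of a pair, or in the same type of both lung pairs; none of these differences between types or pairs was tested. In the Bdnf pair, the log2 ratio of Ccnjl was 0.91 in AT1-like and -0.95 in myofibroblast-like cells, but with free RNA subtracted both were negative, at -1.18 and -1.26. In the Hgf pair, with free RNA not subtracted, Ccnd3 had log2 ratios of 0.85 in gCap-like, 0.76 in matrix fibroblast-like, 0.78 in myofibroblast-like and 1.44 in pericyte-like cells. Against these stood -1.14 in aCap-like and -1.11 in immune-like cells, the last within the fold at -0.28 without dividing barcodes. The aCap-like and gCap-like values of Ccnd3 both rest on more than 900 cells in each Hgf library. Cdkn1a in the Hgf pair had log2 ratios of 2.99 in AT1-like, 0.72 in gCap-like, 0.94 in aCap-like and 1.24 in pericyte-like cells, against -0.66 in myofibroblast-like cells, the last within the fold at -0.41 with a stricter gate on cell type. Cdkn1b in the Hgf pair had log2 ratios of 0.73 in AT2-like, 0.66 in aCap-like, 0.88 in matrix fibroblast-like and 0.83 in myofibroblast-like cells, against -0.69 in immune-like cells, which was 0.35 without dividing barcodes. Btg2 in pericyte-like cells, a type in which the transgene acts, had a log2 ratio of 1.19 in the Bdnf pair and -0.62 in the Hgf pair, the latter within the fold at -0.16 with the stricter gate. The controls of these pairs already differed in pericyte-like cells, with Btg2 at 298 CPM in the Bdnf control and 510 CPM in the Hgf control, a log2 ratio of 0.77 (0.41 to 1.13).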

How the results depend on the processing

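No paired analysis was possible because each group has 1 library, and no library could be left out. A fold of 2 in place of 1.5 left 6 members by type in the Bdnf pair, 25 in the Hgf pair, 3 in the Nodal pair and 10 between control lungs, since fewer members reach it. Leaving out classes under 200 cells in the Hgf pair, chosen after seeing the data, left 25 of 38. Under the other alternatives the counts were 16 to 26 for the Bdnf pair, 35 to 46 for the Hgf pair, 8 to 11 for the Nodal pair and 19 to 32 between controls. The highest cell type of a member in a library was the same in 53 to 59 of 60 cases. Of 2734 single ratios recomputed, 2561 stayed within their interval, 168 moved out of it and 5 that had been past the fold changed sign; ratios within the fold that changed sign are among the others. With free RNA subtracted, which was added once the data were seen, the log2 ratio of Ccnjl in AT1-like cells was -1.18 and that of Rgcc -0.91 in aCap-like and -0.12 in myofibroblast-like cells of the Bdnf pair. Without dividing barcodes Cdkn1b in Hgf immune-like cells was 0.35, and with Leiden clusters, which gave 204 of the 253 ratios, Rgcc in aCap-like cells was 0.15 between controls; the cause was not tested. Thinning lowered the shares whose intervals did not overlap from 82 to 75 of 220. No such count was made over all genes, and shares of all genes past the fold were not computed under the alternatives. Nothing is read about the members from the counts in this paragraph. Depth limits Ccnjl, which reached 50 UMIs in 5 of 8 main types of the Bdnf pair, 3 of 9 of the Hgf pair and 2 of 5 of the Nodal pair.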

Other observations

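Cell types outside the main comparisons held further values of the members. In venous-like cells Btg2 was 449 CPM in the Bdnf control, 634 in the Bdnf iPCKO, 905 in the Hgf control and 1267 in the Hgf iPCKO lung. Ccnd1 in lymphatic-like cells was 195, 131, 32.1 and 13.4 CPM in the same order, with a log2 ratio of -2.60 between the control lungs. Wee1 in ciliated-like cells was 27.1, 39.2, 10.5 and 40.0 CPM.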
